A study of Mus musculus with 15 samples.

Results

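The genes described here encode 10 proteins of insulin signaling, and they were selected by gene name (Insr, Igf1r, Irs1, Irs2, Pik3r1, Akt1, Akt2, Foxo1, Foxo3 and Igfbp1). All 10 were found among the 54532 genes of the deposited liver and lung tables. The mice were wild-type males of the inbred strain C57BL/6J, fed either a control diet (CS group) or the same kind of diet with 2% phytosterols (PS group), the plant sterols that resemble cholesterol. RNA was sequenced from 4 CS and 5 PS livers and from 3 CS and 3 PS lungs, 1 library per mouse and tissue, and each lung came from a mouse that had also given a liver, 6 mice in all. The labels give an age of 28 weeks for every mouse, whereas the study's times of purchase, adaptation and feeding add up to a later age. The feeding state and the hour at collection are not given in the sources used here.

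Insulin binds the insulin receptor (Insr), a tyrosine kinase that phosphorylates the adaptor proteins Irs1 and Irs2. These recruit phosphoinositide 3-kinase, whose regulatory subunit p85 alpha is encoded by Pik3r1, and the lipid it makes activates the kinases Akt1 and Akt2. Akt then phosphorylates the transcription factors Foxo1 and Foxo3, which leave the nucleus and stop driving their targets. In the liver these targets include Igfbp1, a secreted protein that binds insulin-like growth factors, and Irs2, so that both transcripts are known to be high in fasting and low after feeding, while lipid synthesis genes respond to insulin in the opposite sense.

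The promoters of Igfbp1, Irs1 and Irs2 are shown because these genes were among those with the larger differences described below and because each holds the core of the insulin response element, CAAAACA, on one strand or the other (TGTTTTG when read on the opposite strand). Each line gives the 250 bases before the RefSeq transcription start in the sense of the gene, with the core in capitals. The build is GRCm38.p6, and the windows lie at chr11:7197537-7197786 (plus strand, Igfbp1), chr1:82291440-82291689 (minus strand, Irs1) and chr8:11008930-11009179 (minus strand, Irs2).
Igfbp1: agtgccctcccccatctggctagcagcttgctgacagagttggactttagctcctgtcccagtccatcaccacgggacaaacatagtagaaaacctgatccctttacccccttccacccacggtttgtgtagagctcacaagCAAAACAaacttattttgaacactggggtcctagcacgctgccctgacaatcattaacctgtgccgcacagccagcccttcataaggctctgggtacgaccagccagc
Irs1: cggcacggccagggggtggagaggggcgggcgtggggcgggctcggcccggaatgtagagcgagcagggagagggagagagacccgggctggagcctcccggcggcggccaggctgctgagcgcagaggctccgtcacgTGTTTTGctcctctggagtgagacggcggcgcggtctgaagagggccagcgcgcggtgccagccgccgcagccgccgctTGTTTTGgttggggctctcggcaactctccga
Irs2: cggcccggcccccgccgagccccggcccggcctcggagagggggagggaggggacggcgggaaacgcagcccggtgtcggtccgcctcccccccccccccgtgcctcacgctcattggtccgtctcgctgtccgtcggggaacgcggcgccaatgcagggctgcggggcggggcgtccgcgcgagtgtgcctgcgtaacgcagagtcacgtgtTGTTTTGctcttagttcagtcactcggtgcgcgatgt
The match in Igfbp1 began at position -108 from the start, those in Irs1 at -111 and -32, and that in Irs2 at -37. Windows that also include the 50 bases after the start were given for 9 of the members (14 windows), and 4 members had a match. The fourth was Akt1, with the FoxO core GTAAACA at -161 on the opposite strand. Pik3r1, which was higher in the PS livers as described below, had no match in its windows. Over all 32851 windows, the insulin response element core was present in 6.28% and the FoxO core in 3.65%, and of the 27025 genes with a window 7.2% and 4.05% had one. A match in letters was not tested for binding.

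The total count per library ranged from 14410117 to 17625179 in the livers and from 17934930 to 19396057 in the lungs. A pair of livers stood apart from the others. CS replicate 2 and PS replicate 1 had 15961 and 16207 genes with a count, against 18250 to 19598 in the other 7, and 14.4% and 13.3% of their counts fell on the mitochondrial genome. PS replicate 3 had 9.79% and the other 6 livers had 3.33% to 6.50%. In the lungs this share was 2.94% to 3.51% for CS and 3.69% to 7.28% for PS. CPM below is the count relative to the library size after TMM scaling. The 6 hepatocyte markers summed to between 72340 and 106630 CPM in the CS livers and between 88294 and 115100 CPM in the PS livers, with 4 of 6 fitted changes above 0 and none past the unadjusted threshold. The 5 alveolar type II markers summed to between 19752 and 20864 CPM in the CS lungs and between 21768 and 34281 CPM in the PS lungs, so every PS lung lay above every CS lung in this sum. Singly, 2 of the 5 had a fitted change above 0 and 3 below, with 1 past the unadjusted threshold in each direction and none past the adjusted one. Genes of the circadian clock differed between the diets in both tissues. Of 12 tested, 8 were higher and 3 lower in the PS livers at an unadjusted p at most 0.05, where 3.96% and 3.58% of all genes were. In the lungs 8 were higher and 3 lower as well, where 15.6% and 14.5% of all genes were. Their summed level was 192 to 389 CPM in the CS livers and 356 to 675 CPM in the PS livers, and 456 to 580 against 557 to 860 CPM in the lungs. The part of these differences in the results below was not tested.

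In the liver, Igfbp1 and Irs2 were lower and Pik3r1 was higher in the PS group at an unadjusted p at most 0.05. The other 7 members did not pass, and no member passed after adjustment over the 13195 genes tested with edgeR. At the unadjusted threshold 3 of 10 members were called, where 7.55% of all genes were, and 1 of them was higher (3.96% of all genes) and 2 were lower (3.58%). After adjustment 0.00758% of all genes, which is 1 gene, passed. The fitted change was below 0 for 6 members and above 0 for 4, with a median log2 fold change of -0.13, against -0.03 and 53.9% below 0 over all genes tested. Without the 2 livers that stood apart, a choice made after seeing the data, 2 members passed the unadjusted threshold as higher and 3 as lower, and 1 of them, Irs2, passed the adjusted one. In bulk tissue, fewer cells of a type and less RNA per cell cannot be told apart.

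**Figure D1:**
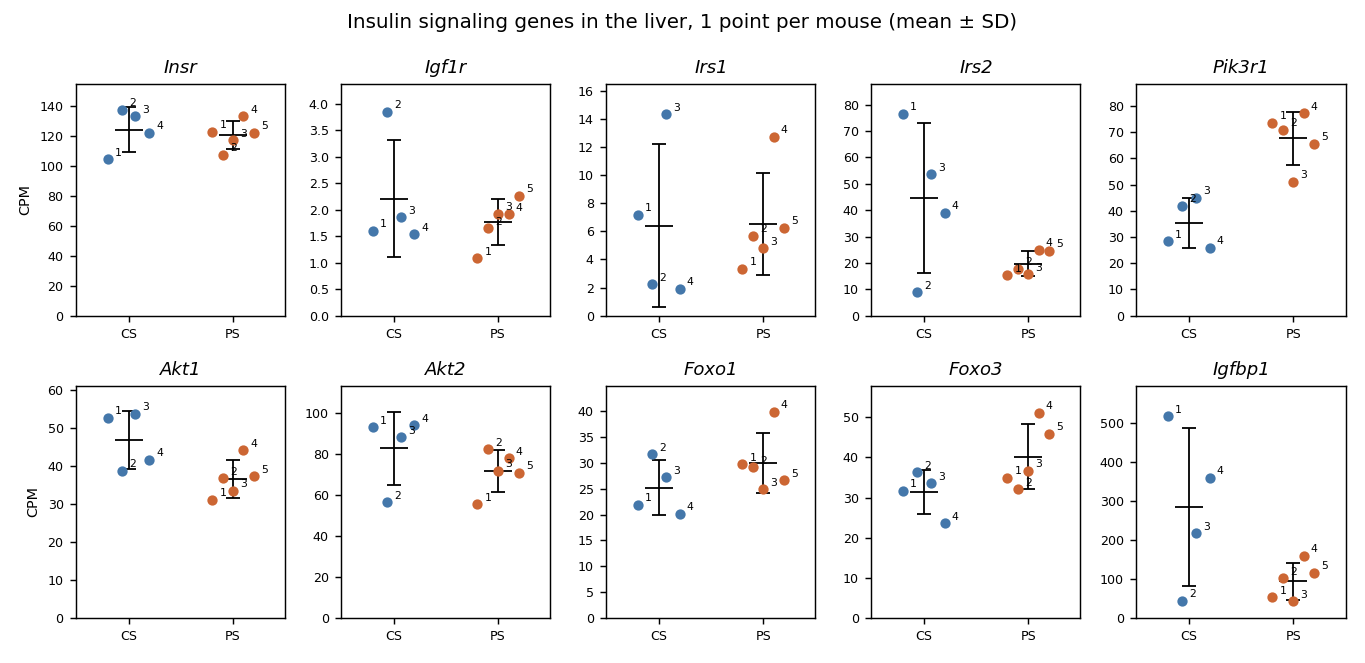
Level of each member in the liver in CPM (vertical axis, from 0) for the CS and PS groups, with 1 point per mouse numbered by replicate and the mean ± SD in black. The 5 PS livers lie at 51.02 CPM or more for Pik3r1, above all 4 CS livers, while for Igfbp1 and Irs2 CS replicate 2 lies among or below the PS livers.

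Igfbp1 (chr11:7197782-7202546, plus strand, GRCm38) had the widest range of the members. Its level was 518.4, 43.66, 217.4 and 359.9 CPM in CS replicates 1 to 4 and 52.38, 101.6, 42.27, 158.8 and 115.6 CPM in PS replicates 1 to 5. CS replicates 1, 3 and 4 lay above every PS liver, and CS replicate 2 lay near the bottom of the PS range. The CS mean was 285 ± 202 (SD, n = 4), and the PS mean was 94.2 ± 47.8 (SD, n = 5). The log2 fold change was -1.60 ± 0.58 (SE), with an unadjusted p of 0.018 and an adjusted p of 0.51 by edgeR. The 3 livers with the largest mitochondrial share, CS replicate 2 and PS replicates 1 and 3, had the 3 lowest values. Without CS replicate 1 the change was -1.14 and the unadjusted p 0.074, and in the fit without a filter on low counts the unadjusted p was 0.052. Without the 2 livers that stood apart it was -1.80, with an adjusted p of 0.12.

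Irs2 (chr8:10984681-11008458, minus strand), the adaptor that predominates over Irs1 per unit of length in the liver, followed a like pattern. It was at 76.64, 8.894, 53.63 and 39.06 CPM in CS replicates 1 to 4 and at 15.30, 17.68, 15.74, 24.89 and 24.67 CPM in PS replicates 1 to 5. CS replicate 2 was the lowest of all 9 livers and the other 3 CS livers were above every PS liver. The means were 44.6 ± 28.4 (SD, n = 4) and 19.7 ± 4.76 (SD, n = 5). The log2 fold change was -1.18 ± 0.45 (SE), with an unadjusted p of 0.023 and an adjusted p of 0.54 by edgeR. The adjusted p was 0.022 without CS replicate 2, where the change was -1.52, and 0.042 without both livers that stood apart. Without CS replicate 1 the change was -0.79 and without CS replicate 3 it was -1.08, and both then missed the unadjusted threshold. The exons of 9530052E02Rik, with up to 18 counts in any library, overlap those of Irs2 by 162 bases on the opposite strand, and reads from these bases cannot be told apart.

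Irs1 (chr1:82233101-82291416, minus strand), the adaptor best known from muscle and fat, varied within each diet rather than between them. It was at 7.173, 2.224, 14.34 and 1.921 CPM in the CS livers and at 3.322, 5.684, 4.781, 12.75 and 6.233 CPM in the PS livers. The log2 fold change was 0.03 ± 0.57 (SE), and its sign turned when CS replicate 2, CS replicate 4 or PS replicate 4 was left out. Gm9747, with 0 counts in every liver and lung, is annotated on the opposite strand over 2822 bases of the exons of Irs1. The libraries do not mark the strand, so reads from these bases cannot be assigned to either gene, and how they were counted is not given in the sources used here. The counts and the levels per length of Irs1 are uncertain to that extent in the liver and in the lung.

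Pik3r1 (chr13:101680563-101768217, minus strand) was the only member whose diets did not overlap in the liver. It was at 28.42, 41.98, 45.04 and 25.99 CPM in the CS livers and at 73.71, 70.93, 51.02, 77.20 and 65.51 CPM in the PS livers. Of all genes tested, 3.63% lay without overlap and 2.1% in this direction. The means were 35.4 ± 9.55 (SD, n = 4) and 67.7 ± 10.2 (SD, n = 5). The log2 fold change was 0.94 ± 0.21 (SE), with an unadjusted p of 0.00095 and an adjusted p of 0.19 by edgeR. With the Wald test of DESeq2 the adjusted p was 0.0089. The change stayed between 0.82 and 1.07 over all alternatives run, and the unadjusted p was at most 0.015.

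The receptors did not pass in the liver. Insr (chr8:3122061-3279617, minus strand) was at 104 to 137 CPM in the CS livers and 107 to 133 CPM in the PS livers, with a log2 fold change of -0.04 ± 0.16 (SE), the narrowest error of the 10 members. Igf1r (chr7:67952827-68233668, plus strand), the receptor for insulin-like growth factor 1, had between 14 and 57 counts per liver and a change of -0.32 ± 0.37 (SE). These counts allow no finer statement about Igf1r in the liver.

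Akt1 (chr12:112653821-112674884, minus strand) was at 38.8 to 53.9 CPM in the CS livers and 31.1 to 44.2 CPM in the PS livers. Its log2 fold change was -0.35 ± 0.17 (SE, unadjusted p = 0.059 by edgeR), and it passed the unadjusted threshold without CS replicate 2 (-0.44), without PS replicate 4 (-0.44), without the 2 livers that stood apart (-0.38) and with the Wald test of DESeq2 (-0.36). Akt2 (chr7:27591552-27640826, plus strand), the form most tied to glucose metabolism, was at 56.3 to 93.9 CPM in the CS livers and 55.5 to 82.2 CPM in the PS livers, with a change of -0.21 ± 0.20 (SE). Its processed copy Akt2-ps, which matches it at 98.6% over 1449 bases, was at 0.135 to 2.84 CPM in the livers.

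Foxo1 (chr3:52268336-52353221, plus strand), the principal FoxO factor of insulin action in the liver, was at 20.1 to 31.7 CPM in the CS livers and 24.9 to 39.8 CPM in the PS livers, with a log2 fold change of 0.25 ± 0.20 (SE). Foxo3 (chr10:42181841-42276755, minus strand) was at 23.6 to 36.3 and 32.1 to 51.2 CPM, with a change of 0.36 ± 0.20 (SE, unadjusted p = 0.092 by edgeR). Without the 2 livers that stood apart Foxo3 passed the unadjusted threshold with a change of 0.49, and with GC trends removed it passed with 0.43. Gm20402, with 0 counts in every liver and lung, is annotated over 674 bases of Foxo1 on the opposite strand. The counts of Foxo1 are uncertain there in the same way.

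Levels of different genes were compared per length, with the deposited FPKM values and within a tissue. In the CS livers Igfbp1 led with 191 ± 136 FPKM (SD, n = 4), and its range lay clear of Akt2 at 11.9 ± 2.64 FPKM. Akt2, Akt1, Insr, Irs2, Foxo3, Pik3r1 and Foxo1 followed, and each overlapped the next in this order. Irs1 at 0.717 ± 0.652 FPKM and Igf1r at 0.133 ± 0.0646 FPKM were the lowest. In the PS livers Irs2 had rank 8 with 3.16 ± 0.782 FPKM and Pik3r1 rank 5 with 6.82 ± 1.09 FPKM (SD, n = 5), against ranks 5 and 7 in the CS livers, though neither was clear of both its neighbours. The ratio of Insr to Igf1r was 43.7 to 138 in the livers and 0.939 to 1.24 in the lungs, so the livers held far more transcript for the insulin receptor than for the growth factor receptor while the lungs held about the same amount of each. The tables of the tissues were normalized separately, and a ratio within a library does not depend on that scaling.

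In the lung, Irs1 was lower in the PS group and passed after adjustment, and the other 8 members tested did not. This is 1 of 9 members, where 9.22% of the 16717 genes tested passed and 4.43% were lower, so the share of members called was near that of all genes. At the unadjusted threshold Irs1 was again the only one, where 30.1% of all genes passed and 14.5% were lower. The fitted change was below 0 for 8 of the 9 members and above 0 for Foxo3, with a median log2 fold change of -0.19, against 0.0052 and 49.6% below 0 over all genes tested.

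**Figure D2:**
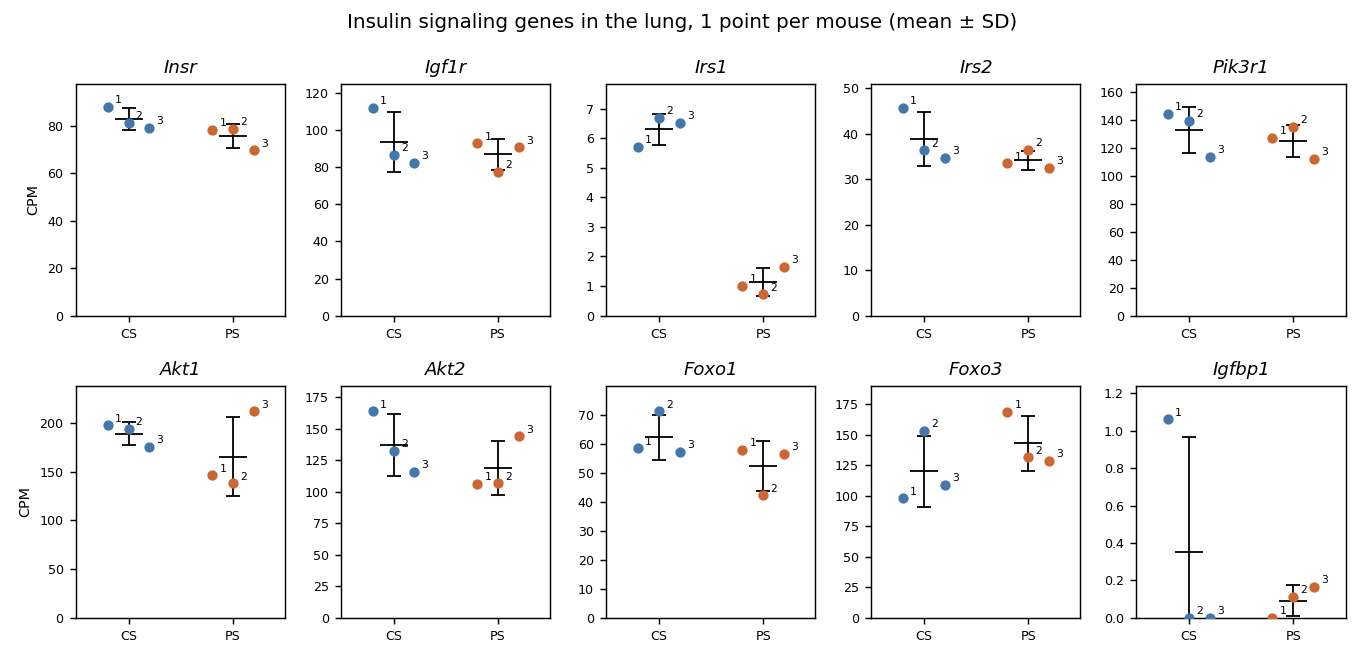
Level of each member in the lung in CPM (vertical axis, from 0) for the CS and PS groups, with 1 point per mouse numbered by replicate and the mean ± SD in black. Irs1 lies at 5.711 CPM or more in the 3 CS lungs and at 1.655 CPM or less in the 3 PS lungs, and counts for Igfbp1 come mostly from CS replicate 1.

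Irs1 was at 5.711, 6.682 and 6.513 CPM in the CS lungs and at 1.006, 0.726 and 1.655 CPM in the PS lungs. Every PS lung was below every CS lung, by more than the spread within either diet. The CS values rested on 113, 130 and 120 counts and the PS values on 17, 13 and 30. The log2 fold change was -2.47 ± 0.35 (SE), with an adjusted p of 0.017 by edgeR. The members were chosen with earlier results of these same lungs known, so this value is not independent of that choice. The change stayed between -2.86 and -2.23 when any 1 lung was left out. The adjusted p was then 0.068 without CS replicate 1, 0.068 without CS replicate 2, 0.077 without CS replicate 3 and 0.065 without PS replicate 2, and at most 0.0098 without PS replicate 1 or 3. In these fits with fewer lungs the count of all genes called changed as well, down to 0 without CS replicate 3. PS replicates 1 and 2, with the lowest Irs1 values, had mitochondrial shares of 6.13% and 7.28%, and PS replicate 3 had 3.69%. The same PS replicates 1 and 2 had the highest sums of the alveolar type II markers, at 34281 and 33910 CPM, against 21768 CPM in PS replicate 3. Markers of heart and skeletal muscle summed to 169 to 457 CPM in the CS lungs and 41.1 to 490 CPM in the PS lungs. One of these 8, the cardiac actin Actc1, was at 60.1 to 87.0 CPM in the CS lungs and 20.99 to 56.2 CPM in the PS lungs, without overlap (log2 fold change -0.91, adjusted p = 0.094 by edgeR), and the other 7 did not pass the unadjusted threshold. Single lungs made up much of the sums, with Acta1 at up to 221 CPM in a CS lung and Myh6 at up to 142 CPM in a PS lung. Of the 8 markers of fat cells, where Irs1 is abundant, 7 had a fitted change below 0 in the lung, and none of these passed the unadjusted threshold (median of all 8 on the log2 scale -0.91). Adipoq, the adiponectin gene of fat cells, was at 2.01 to 19.4 CPM in the CS lungs, and it was at 12.8 CPM in PS replicate 1 and at 0 in PS replicates 2 and 3. Lipe, which other cells also express, was higher (mean 108 CPM in the CS and 171 CPM in the PS lungs, adjusted p = 0.034 by edgeR), and with it in the sum the list was at 134 to 302 and 175 to 313 CPM. The part of these markers in the change of Irs1 was not tested.

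Irs2 was at 45.74, 36.39 and 34.68 CPM in the CS lungs and at 33.55, 36.51 and 32.50 CPM in the PS lungs, with a log2 fold change of -0.19 ± 0.16 (SE). The diets overlapped. Per length, the ratio of Irs2 to Irs1 was 7.70 to 11.6 in the CS lungs and 28.4 to 72.8 in the PS lungs. In the livers the ratio was 5.41 to 29.4 on the control diet and 2.82 to 6.66 on the PS diet, with overlap.

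Insr lay without overlap in the lung, at 79.19 to 87.99 CPM in the CS lungs and 69.75 to 78.87 CPM in the PS lungs, as did 18.8% of all genes in that direction. Its log2 fold change was -0.13 ± 0.13 (SE, adjusted p = 0.52 by edgeR). Igf1r was at 82.3 to 112 and 77.5 to 93.0 CPM, with a change of -0.11 ± 0.16 (SE). Pik3r1, higher in the PS livers, was at 144.8, 139.7 and 114.0 CPM in the CS lungs and at 127.6, 135.4 and 112.4 CPM in the PS lungs, with a change of -0.09 ± 0.15 (SE).

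The kinases and factors downstream overlapped between the diets in the lung. Akt1 was at 175 to 198 CPM in the CS lungs and 138 to 212 CPM in the PS lungs, and Akt2 was at 116 to 164 and 106 to 144 CPM, with log2 fold changes of -0.19 ± 0.19 and -0.21 ± 0.18 (SE). Akt1 was at -0.41 without PS replicate 3 (unadjusted p = 0.018 by edgeR), -0.12 without PS replicate 1 and -0.075 without PS replicate 2. With GC trends removed it was at -0.45, or -0.47 with the replicate block added, both past the unadjusted threshold and neither past the adjusted one (adjusted p = 0.12 and 0.14 by edgeR). The copy Akt2-ps was at 2.43 to 2.52 CPM in the CS lungs and 1.07 to 1.38 CPM in the PS lungs (log2 fold change -0.96, adjusted p = 0.085 by edgeR). Foxo1 was at 57.2 to 71.2 and 42.3 to 58.0 CPM and Foxo3 at 97.9 to 153 and 129 to 169 CPM, with changes of -0.25 ± 0.17 and 0.25 ± 0.20 (SE). Per length Akt1 led in the CS lungs with 46.2 ± 3.13 FPKM (SD, n = 3), clear of Akt2 at 19.3 ± 3.54 FPKM, and Irs1 at 0.691 ± 0.0548 FPKM had rank 9, below Igf1r without overlap.

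Igfbp1, the most abundant member per length in the liver, was hardly detected in the lung. Its counts were 21, 0 and 0 in the CS lungs and 0, 2 and 3 in the PS lungs, too few for the test. A count of 0 allows up to 3 counts, which is 0.154 to 0.178 CPM in the lungs without a count. The 21 counts came from CS replicate 1, where the summed hepatocyte markers were at 95.01 CPM, against 1.09 to 17.1 CPM in the other 5 lungs. The same library held 21 counts of G6pc, a liver enzyme. The floors and intervals cover counting error only.

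**Figure D3:**
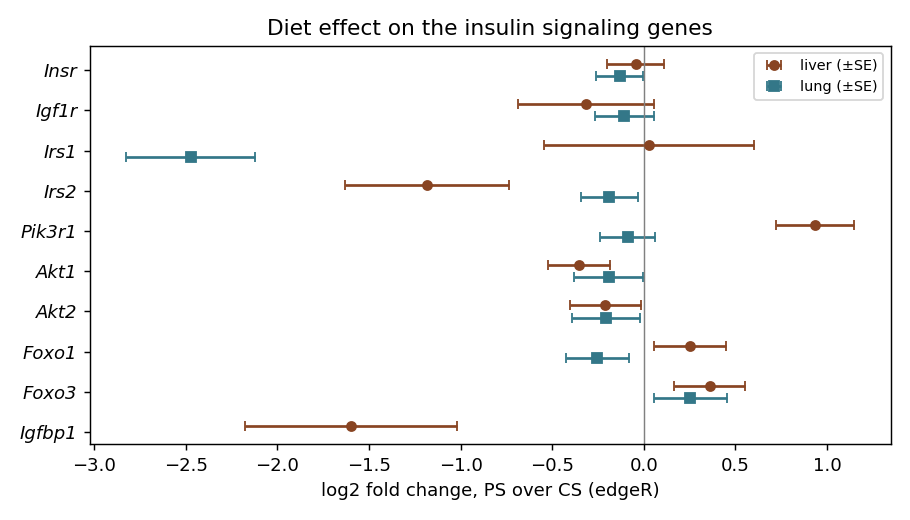
Fitted log2 fold change of the PS over the CS group (horizontal axis) with its SE for each member in the liver (circles) and in the lung (squares). Pik3r1 lies at 0.94 and Irs2 at -1.18 in the liver while both are near 0 in the lung, Irs1 lies at -2.47 in the lung and at 0.03 in the liver, and Igfbp1 was tested in the liver only.

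Whether the diet acted differently in the tissues was tested in 1 edgeR model over all 15 libraries. The model had no term for the mouse, so the 6 mice with both tissues entered with each tissue as an independent library. Of the 9 members measured in both tissues, 2 passed at the unadjusted threshold, where 10.9% of the 17696 genes tested did and 5.4% had a lower change in the lung. None passed after adjustment, where 0.0226% of all genes did. The change of Irs1 was lower in the lung than in the liver by 2.55 on the log2 scale (-2.55 ± 0.84 SE, unadjusted p = 0.0079, adjusted p = 0.34 by edgeR). That of Pik3r1 was lower by 1.07 (-1.07 ± 0.29 SE, unadjusted p = 0.0020, adjusted p = 0.26 by edgeR). With DESeq2 the adjusted p for Pik3r1 was 0.048. In the 6 mice with both tissues and with mouse as the block, the difference was -2.03 for Irs1 (unadjusted p = 0.026 by edgeR) and -0.77 for Pik3r1 (unadjusted p = 0.062 by edgeR). In the same mice without the block Irs1 was at -1.69 (unadjusted p = 0.051 by edgeR) and Pik3r1 at -0.76 (unadjusted p = 0.025 by edgeR). The difference for Irs2 was 0.96 ± 0.61 (SE), which did not pass, and without the 2 livers that stood apart it was 1.29 (unadjusted p = 0.0012, adjusted p = 0.17 by edgeR), while it was 1.30 when CS replicate 2 alone was left out of the livers (unadjusted p = 0.0010 by edgeR). The difference for Foxo1 was -0.56 ± 0.28 (SE, unadjusted p = 0.065, adjusted p = 0.48 by edgeR). It passed the unadjusted threshold without the 2 livers that stood apart (-0.61), without CS replicate 2 (-0.66) or PS replicate 3 (-0.62) of the livers, and without PS replicate 1 of the lungs (-0.66), and in the 6 mice with both tissues it was -0.23 with the block and -0.22 without it. The diet effects in Irs2 and Igfbp1 are therefore not shown to be particular to the liver.

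Another 74 genes of the pathway were followed by list. In the liver 65 were tested, and at the unadjusted threshold 7 had a higher and 4 a lower level in the PS group, where 3.96% and 3.58% of all genes did, while none passed after adjustment, with a median log2 fold change of -0.07. By list, 4 were higher and 2 lower among 13 known FoxO targets, and 3 were higher among 4 insulin-induced liver genes. The plot of these liver genes gives their level in each mouse.

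**Figure D4:**
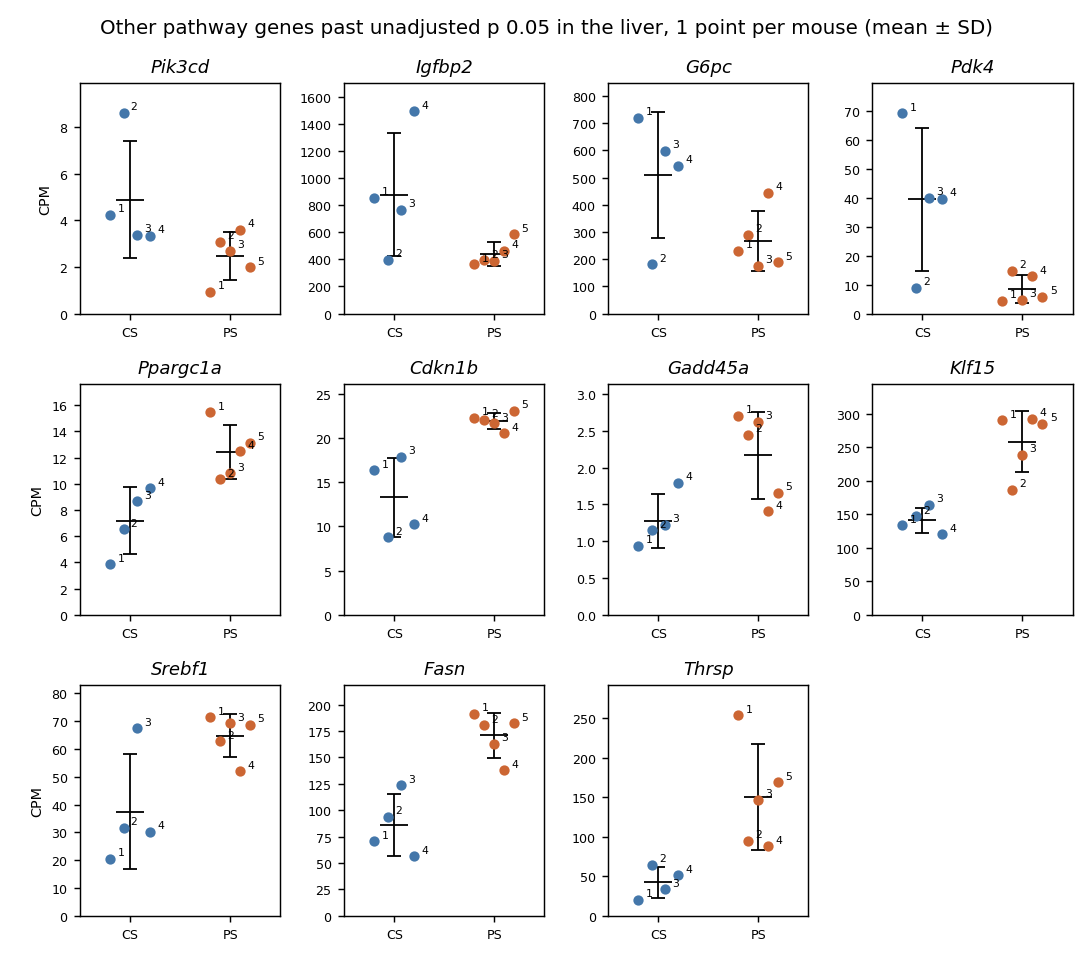
Level in the liver in CPM (vertical axis, from 0) of the 11 other pathway genes past an unadjusted p of 0.05, for the CS and PS groups, with 1 point per mouse numbered by replicate and the mean ± SD in black. Fasn, Klf15, Thrsp, Cdkn1b and Ppargc1a do not overlap between the diets, whereas for G6pc, Pdk4 and Igfbp2 CS replicate 2 lies among the PS livers. Of all genes tested in the liver, 3.63% lay without overlap and 2.1% did so with higher PS levels. The 11 genes were selected on these same values, so the lack of overlap adds no separate evidence.

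Of the FoxO targets, G6pc and Pdk4 were lower in the PS livers. G6pc, which releases glucose from its phosphate, was at 719.1, 180.6, 598.7 and 544.2 CPM in the CS livers and at 230.1, 290.3, 174.8, 445.0 and 188.3 CPM in the PS livers (log2 fold change -0.94 ± 0.38 SE). It missed the unadjusted threshold without CS replicate 1, 3 or 4 or PS replicate 1, 3 or 5, with values from -0.91 to -0.74. Pdk4, a kinase that holds back glucose oxidation, was at 69.19, 8.827, 39.87 and 39.70 CPM in the CS livers and at 4.327, 14.72, 4.840, 12.87 and 5.835 CPM in the PS livers (-2.20 ± 0.53 SE). For both genes CS replicate 2 was within the PS range, as it was for Igfbp1, while the other 3 CS livers were above it.

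Ppargc1a, Cdkn1b, Gadd45a and Klf15, also known FoxO targets, were higher in the PS livers. Klf15, a factor that drives amino acid breakdown and glucose production, was at 120 to 164 CPM in the CS livers and 187 to 292 CPM in the PS livers (log2 fold change 0.87 ± 0.19 SE). The coactivator Ppargc1a was at 3.86 to 9.67 and 10.3 to 15.5 CPM (0.79 ± 0.27 SE), and the cell cycle inhibitor Cdkn1b at 8.76 to 17.9 and 20.6 to 23.1 CPM (0.72 ± 0.22 SE). Gadd45a had only 17 to 45 counts per liver (0.76 ± 0.35 SE) and missed the threshold in 7 of the alternatives that leave out a liver or a pair of livers.

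The insulin-induced genes Thrsp, Fasn and Srebf1 were higher in the PS livers. Thrsp, a factor of fatty acid synthesis, was at 20.42, 64.75, 33.37 and 51.41 CPM in the CS livers and at 253.7, 95.09, 146.6, 87.76 and 169.1 CPM in the PS livers (log2 fold change 1.82 ± 0.40 SE). Fatty acid synthase (Fasn) was at 56.5 to 124 and 138 to 191 CPM (0.99 ± 0.23 SE). Srebf1, the factor that drives Fasn, was at 20.5 to 67.4 and 52.0 to 71.3 CPM (0.79 ± 0.30 SE), and it missed the threshold without CS replicate 1 (0.58) or CS replicate 4 (0.70), while it was at 1.24 without CS replicate 3.

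The 2 other genes called in the liver were lower in the PS group. Igfbp2, a further binding protein, was at 397 to 1494 CPM in the CS livers and 364 to 584 CPM in the PS livers (log2 fold change -1.001 ± 0.320 SE), and its change was -0.62 without CS replicate 4. Pik3cd, the catalytic subunit typical of leukocytes, was at 3.33 to 8.62 and 0.927 to 3.60 CPM (-0.98 ± 0.41 SE), and it missed the threshold in 8 of 17 alternatives. Its change was -0.56 without CS replicate 2 and -0.36 without the 2 livers that stood apart, and the threshold was also missed without PS replicate 1, 3 or 5, with the replicate block, with GC trends removed and with both of these. Among the other called genes of the liver lists, Gadd45a missed it in 11 of the 17, G6pc in 8, Srebf1 in 3, Ppargc1a in 2 and Igfbp2 in 1. All 4 macrophage markers tested were below 0 in the liver, 1 of them at the unadjusted threshold, and their sum was 96.6 to 161 CPM in the CS livers and 37.0 to 106 CPM in the PS livers. All 5 endothelial markers were below 0 as well, 2 at the unadjusted threshold, with sums of 48.3 to 87.3 and 30.7 to 56.0 CPM. Of all genes tested in the liver, 3.58% were lower at that threshold. Of 4 markers of sinusoidal endothelium, 3 were below and 1 above 0, none past the threshold. Their sums overlapped, at 75.7 to 115 CPM in the CS livers and 46.5 to 112 CPM in the PS livers. The part of these macrophage and endothelial markers in the change of Pik3cd was not tested. The 6 adaptors, 12 inhibitors, 9 kinases and 7 Akt substrates tested in the liver held no call. The 6 genes of the fasting response overlapped in sum, at 5178 to 6419 CPM in the CS livers and 5399 to 6433 CPM in the PS livers.

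In the lung 68 of the other pathway genes were tested, and after adjustment 2 were higher, where 4.8% of all genes were, and 2 were lower, where 4.43% of all genes were. The median change of the 68 on the log2 scale was 0.02. At the unadjusted threshold, which the liver lists used, 8 were higher and 12 lower, where 15.6% and 14.5% of all genes were. Of the 12 FoxO targets tested in the lung, 2 were higher and 5 lower at that threshold. Sh2b1, an adaptor that enhances insulin receptor signaling, was at 49.48, 51.35 and 49.45 CPM in the CS lungs and at 67.28, 85.91 and 77.20 CPM in the PS lungs (log2 fold change 0.62 ± 0.14 SE, adjusted p = 0.037 by edgeR). Its relative Sh2b2 was at 1.57 to 2.32 and 4.32 to 4.69 CPM (1.16 ± 0.29 SE, adjusted p = 0.042 by edgeR). With each library's trend with GC content removed, Sh2b1 was at 0.36 and Sh2b2 at 0.83, and neither passed (adjusted p = 0.11 and 0.098 by edgeR).

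Pdpk1, the kinase that activates Akt, was at 88.04, 69.08 and 73.76 CPM in the CS lungs and at 32.37, 21.83 and 45.30 CPM in the PS lungs (log2 fold change -1.21 ± 0.25 SE, adjusted p = 0.031 by edgeR). Ptprf, a receptor phosphatase that can act on the insulin receptor, was at 261.4, 265.1 and 263.0 CPM in the CS lungs and at 117.7, 116.9 and 174.4 CPM in the PS lungs (-0.95 ± 0.18 SE, adjusted p = 0.027 by edgeR). The diets did not overlap for any of these 4 genes, as for 36.0% of all genes tested in the lung. As for Irs1, the adjusted p of each of them rose above 0.05 when CS replicate 1, 2 or 3 or PS replicate 2 was left out, and that of Sh2b2 also without PS replicate 3 and with the replicate block (adjusted p = 0.056 by edgeR).

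Genes with a pattern most like that of a member were sought by Pearson's correlation of log2 CPM across libraries, as a description. For Igfbp1 over the 9 livers, Tgfbi, Tmed5, Nsun2, Derl1 and Slc16a1 led 10998 genes, with r between 0.960 and 0.969. Among the members, Irs2 reached r = 0.93, Akt2 0.87 and Akt1 0.80 with Igfbp1, and Pik3r1 was at -0.58. For Irs1 over the 6 lungs, Map4k5, Pex7, Bckdha, Pptc7 and Glt8d2 led 14241 genes, with r of at least 0.997. The points share the split by diet, which in the lungs is a split into separate clusters for Irs1, and the livers also share the differences in mitochondrial share and detected genes given above.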

How the data were processed

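Poly(A) RNA of 9 livers and 6 lungs was sequenced from libraries made with a kit that does not mark the strand. The authors aligned the reads to mm10 with HISAT2 2.0.5 and counted reads per gene with featureCounts 1.5.0-p3, by the submitters' processing notes, which also name DESeq2 1.20.0. The gene model and the strand setting of the counting are not given in the sources used here. The deposited counts are raw, and the deposited FPKM values are scaled by gene length and library by the authors, separately per tissue. Groups and mice were taken from the labels.

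From the counts, edgeR 4.0.16 (R 4.3.3) with TMM scaling, filterByExpr and the robust, two-sided quasi-likelihood test was fitted per tissue for the diets and once over both tissues for the difference. P-values were adjusted over all genes tested (Benjamini-Hochberg). Calls used an adjusted p under 0.05 and an unadjusted p at most 0.05, each named where it is used. SE is the log2 fold change divided by the root of its F. Within a tissue, P-values measure the spread between mice. The main test of the difference between tissues treated the liver and the lung of a mouse as independent.

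The members and lists were chosen with earlier results of these data known. All members were named, and other genes of the lists were named if they passed the adjusted threshold in the lung or between tissues or the unadjusted one in the liver, along with overlapping genes, copies (at least 95% identity over 200 bases) and the 5 genes most like the member of widest range per tissue (mean log2 CPM of at least 1, log2 of CPM + 0.1). Motifs were searched on both strands of RefSeq windows. Genes were placed by GENCODE M21, where all 10 members have the coordinates of the tables.

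The alternatives were DESeq2's size factors and the Wald test of DESeq2 1.42.0, fits without the filter or with a minimum of 10 counts per library, a replicate block, removal of GC trends (loess, span 0.3) alone and with the block, each library left out in turn, mouse as a block between tissues and, chosen after seeing the data, leaving out the 2 livers that stood apart. Mice pair the tissues by their labels, although deviations of the same mouse correlated only at -0.07 to 0.12. No pair of libraries was close enough to be a repeated deposit.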

Additional observations from a re-analysis of the deposited data

Results flagged for a closer look

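In the CS livers, 2 members had a sample far from the other 3, both in CS replicate 2, one of the livers with few detected genes. Akt2 was at 56.33 CPM there, the lowest of the 4, with a gap to the next that made up 0.847 of the whole range (critical value 0.829). Igf1r was at 3.841 CPM, the highest of the 4, with a gap of 0.861 of the range. Chance alone exceeds the critical value in about 1 of 20 groups, and the 10 members in the CS and the PS livers made 20 groups. The other pathway genes named above were examined in the livers in the same way and gave no such sample.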

How the results depend on the processing

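The members kept their direction in all alternatives except some whose fitted change was smaller than its SE. Without the 2 livers that stood apart, Irs1 was at -0.087, Insr at 0.0015 and Igf1r at 0.21 in the liver, and Akt2 at 0.098 and Igf1r at -0.29 for the difference between tissues. With GC trends removed Pik3r1 in the lung was at 0.030, or 0.035 with the replicate block added, and Akt1 at -0.21 for the difference. In the 6 mice with both tissues, Akt2 was at 0.077 and Foxo3 at 0.12 with the mouse as replicate block, and at 0.10 and 0.085 without it. Over fits without 1 library, the sign turned within -0.37 to 0.79 for Irs1, -0.12 to 0.0068 for Insr and -0.45 to 0.086 for Igf1r in the liver, and -0.18 to 0.014 for Igf1r in the lung. For the difference it turned within -0.078 to 0.22 for Akt1, -0.18 to 0.12 for Akt2, -0.31 to 0.061 for Foxo3 and -0.23 to 0.29 for Igf1r. Over all named genes and alternatives, 626 values kept direction and side of the threshold, 69 lost the threshold, 12 gained it and 26 turned. The causes were not tested.

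Replicate numbers do not pair the diets. Same-numbered livers correlated at -0.36 to -0.03 in their deviations from the group means and same-numbered lungs at -0.01 to 0.10. With that block Irs2 was at -0.98 and Igfbp1 at -1.50 in the liver, neither past the unadjusted threshold, and Irs1 in the lung was at -2.53.

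Counts of all genes depended more on the processing. Liver genes higher after adjustment were 1 in the report, 110 with DESeq2, 20 without a filter, 2 with at least 10 counts in every library, 2 with GC trends removed, 0 with the replicate block with or without that, 32 without the 2 livers and 0 to 43 without 1 library. Those lower were 0 in the report (473 at an unadjusted p at most 0.05), 53 with DESeq2, 6 without a filter, 16 without the 2 livers and 0 to 22 without 1 library. At the unadjusted threshold 523 higher and 473 lower became 828 and 785 without a filter, 260 and 227 with the replicate block, 256 and 198 with the block and GC trends removed, 846 and 744 without the 2 livers, and 370 to 1039 and 329 to 852 without 1 library. In the lung 802 higher and 740 lower after adjustment became 1611 and 1479 with DESeq2, and 1220 higher without a filter. They ranged over 0 to 1752 and 0 to 1309 without 1 library (0 without CS replicate 3), and 2608 and 2432 at the unadjusted threshold ranged over 1825 to 3201 and 1640 to 2915. For the difference, 1 gene higher and 3 lower in the lung after adjustment became 94 and 139 with DESeq2, 2 and 8 without a filter, 4 and 8 without the 2 livers, 0 and 0 in the 6 mice with or without the block, 0 to 3 and 0 to 9 without 1 library, 2 higher with at least 10 counts in every library and 0 higher with GC trends removed. The 980 and 955 at the unadjusted threshold became 566 and 413 in the 6 mice with the block, 563 lower without it, 624 lower with at least 10 counts, and 607 to 1371 and 644 to 1265 without 1 library. Counts of 14 to 57 limited Igf1r in the liver, and 13 to 30 limited Irs1 in the PS lungs.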
